A study of Mus musculus with 24 samples.

Results

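The genes described here are the guidance ligands and receptors of the mouse, 63 of the 20665 protein-coding genes on chromosomes 1 to 19 of mm10. Membership went by symbol alone, and no measured value entered that rule, though earlier results of these data were known when the set was chosen. The 34 ligands were 7 class 3 semaphorins, 13 membrane semaphorins, 3 Slits, 4 netrins and 7 ephrins. The 29 receptors were 7 plexins, 4 Robos, 4 Unc5 receptors and 14 Eph receptors. All peaks over each gene body and 5000 bp on each side were compared between WT and KO. Another protein-coding gene was present in 30 of these 63 windows.

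The study profiled histone marks in endothelial cells that were sorted by flow cytometry from mouse lung. The labels call the genotypes WT and KO, and KO refers to Dnmt3a, which encodes an enzyme that sets new DNA methylation. ACT-seq, the assay, directs the Tn5 transposase to a mark through an antibody and tags the DNA that lies there. By the labels each of the 8 groups of mark and genotype comprised 3 samples (24 in all), and 1 peak list per group was analysed here. Yeast nuclei had been added as a spike-in to every group. For the driver of the deletion, the age of the mice and any pooling of animals, the answer is not given in the sources used here. The lists carry no height or score and no value per sample, so there is no spread between replicates and no test between genotypes. Depth is unknown. All genotype differences below compare 2 lists. Intervals are exact Clopper-Pearson intervals at 95% and cover counting error only.

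Guidance molecules were first studied as cues that steer growing axons, and the same molecules steer sprouting blood vessels. Class 3 semaphorins are secreted and act through neuropilins and plexins, Slits act on Robo receptors, netrins act on Unc5 receptors, and ephrins on the surface of one cell bind Eph receptors on the next. In the endothelium Ephb4 marks veins and Efnb2 marks arteries, Plxnd1 is the receptor of Sema3e, and Robo4 and Unc5b are receptors enriched in vessels. H3K4me3 marks promoters, H3K27ac active promoters and enhancers, H3K4me1 enhancers and promoter flanks, and H3K27me3 is laid down by the Polycomb system at silent genes. Promoters with both H3K4me3 and H3K27me3 are often called bivalent, although in a population of cells the 2 marks may lie on different alleles or in different cells.

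The lists held 313065 peaks, of which 2182 lay over guidance genes. The 10 endothelial marker genes examined all had H3K27ac within 1000 bp of a gene end in both genotypes, and 9 had H3K4me3 in both. H3K27me3 lay at an end in both genotypes at 2 of them and in KO only at 2 more (Cdh5 and Esam), and 2 had at least 2-fold more H3K27me3 in KO. Of 7 epithelial markers, 3 had H3K27ac, 2 H3K4me1, 1 H3K4me3 and 5 H3K27me3 at an end in both genotypes. Of 6 mesenchymal markers, 1 had H3K4me1 and 3 had H3K27me3 in both, and 0 had H3K27ac or H3K4me3 in both. At some of these markers of other lung cells the lists differed. Only the KO list had H3K4me3 at 3 epithelial markers (Epcam, Foxj1 and Scgb1a1) and 2 mesenchymal markers (Acta2 and Col1a2), against 6.9% of all genes. Only the WT list had H3K27ac at 2 mesenchymal markers (Col1a2 and Tcf21), against 5.88% of all genes. H3K27ac at Foxj1 and H3K27me3 at Pdgfra were KO-only, and H3K4me1 at Sftpc was WT-only. None of 6 leukocyte markers had H3K4me3 in either list, while H3K27ac, H3K4me1 and H3K27me3 were each listed in both genotypes at 1 of the 6. The part of other cells in the results was not tested. In bulk cells, a mark on fewer cells and less of the mark per cell cannot be told apart.

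The promoters below carry the main finding at gene starts. They are the 300 bases from 250 before to 50 after an annotated start, 5′ to 3′ on the gene's strand, taken from RefSeq on GRCm38.p6 (mm10), with every CG dinucleotide in capitals because CG is the site of DNA methylation. Of the 63 genes, 54 matched an entry, with 70 promoters in all, and Efnb3, Ntn1, Plxna1, Plxna4, Sema3b, Sema3f, Sema6a, Slit1 and Unc5d did not. The first 8 sequences are starts with an H3K4me3 peak within 1000 bp in KO and none in WT. They belong to the ephrins Efna3 (chr3:89322890-89323189, minus strand) and Efna4 (chr3:89337979-89338278, minus), the Eph receptors Epha3 (chr16:63864126-63864425, minus), Epha5 (chr5:84417333-84417632, minus) and Ephb3 (chr16:21204545-21204844, plus), the receptor Robo2 (chr16:74411776-74412075, minus), and the semaphorins Sema3e (chr5:14025026-14025325, plus) and Sema5b (chr16:35541112-35541411, plus).
Efna3: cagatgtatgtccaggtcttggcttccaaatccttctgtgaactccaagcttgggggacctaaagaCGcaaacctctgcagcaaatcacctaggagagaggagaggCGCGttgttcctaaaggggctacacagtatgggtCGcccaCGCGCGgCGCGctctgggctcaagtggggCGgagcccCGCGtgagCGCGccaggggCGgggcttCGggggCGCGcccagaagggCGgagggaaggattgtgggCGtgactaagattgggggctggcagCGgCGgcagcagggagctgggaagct
Efna4: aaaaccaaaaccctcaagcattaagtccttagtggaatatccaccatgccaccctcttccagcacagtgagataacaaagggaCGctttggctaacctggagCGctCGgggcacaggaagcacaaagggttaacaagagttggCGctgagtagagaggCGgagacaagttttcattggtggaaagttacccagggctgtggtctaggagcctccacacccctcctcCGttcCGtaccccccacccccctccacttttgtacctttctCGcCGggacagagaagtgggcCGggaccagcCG
Epha3: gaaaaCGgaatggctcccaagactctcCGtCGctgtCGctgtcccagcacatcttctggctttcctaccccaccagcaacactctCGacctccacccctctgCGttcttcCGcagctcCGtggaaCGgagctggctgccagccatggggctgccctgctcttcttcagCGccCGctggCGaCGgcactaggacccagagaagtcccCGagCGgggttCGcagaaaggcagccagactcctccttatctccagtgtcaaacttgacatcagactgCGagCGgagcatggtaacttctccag
Epha5: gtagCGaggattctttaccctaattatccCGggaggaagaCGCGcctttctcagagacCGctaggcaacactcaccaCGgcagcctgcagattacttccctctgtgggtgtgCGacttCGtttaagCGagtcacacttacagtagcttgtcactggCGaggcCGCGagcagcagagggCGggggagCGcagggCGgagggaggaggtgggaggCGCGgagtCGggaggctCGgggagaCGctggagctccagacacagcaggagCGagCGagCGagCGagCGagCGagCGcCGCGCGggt
Ephb3: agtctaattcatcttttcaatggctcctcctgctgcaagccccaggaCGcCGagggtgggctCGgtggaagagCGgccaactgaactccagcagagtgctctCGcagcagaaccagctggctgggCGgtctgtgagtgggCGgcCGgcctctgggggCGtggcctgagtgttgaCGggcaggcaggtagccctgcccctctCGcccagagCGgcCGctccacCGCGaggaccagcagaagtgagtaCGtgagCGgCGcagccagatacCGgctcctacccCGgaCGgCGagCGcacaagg
Robo2: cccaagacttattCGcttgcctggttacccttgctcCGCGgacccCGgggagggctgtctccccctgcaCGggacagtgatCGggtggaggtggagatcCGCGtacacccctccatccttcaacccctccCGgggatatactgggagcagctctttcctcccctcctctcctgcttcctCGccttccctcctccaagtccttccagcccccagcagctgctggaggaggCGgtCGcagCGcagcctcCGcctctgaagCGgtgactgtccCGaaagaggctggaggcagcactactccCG
Sema3e: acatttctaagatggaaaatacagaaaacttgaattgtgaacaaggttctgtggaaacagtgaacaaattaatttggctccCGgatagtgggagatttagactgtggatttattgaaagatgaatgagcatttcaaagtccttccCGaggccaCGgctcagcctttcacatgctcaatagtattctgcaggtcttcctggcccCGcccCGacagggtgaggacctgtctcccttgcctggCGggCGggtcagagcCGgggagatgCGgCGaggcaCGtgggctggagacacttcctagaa
Sema5b: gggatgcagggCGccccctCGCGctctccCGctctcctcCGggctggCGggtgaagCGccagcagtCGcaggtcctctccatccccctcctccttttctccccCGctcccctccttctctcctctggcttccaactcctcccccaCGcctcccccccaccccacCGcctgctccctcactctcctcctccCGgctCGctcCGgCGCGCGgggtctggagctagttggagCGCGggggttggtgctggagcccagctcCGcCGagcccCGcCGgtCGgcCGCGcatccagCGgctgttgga

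For comparison, the next 5 sequences are starts of endothelial guidance genes that had H3K4me3 in both genotypes. They are Efnb2 (chr8:8661193-8661492, minus strand), Ephb4 (chr5:137349859-137350158, plus), Plxnd1 (chr6:115994956-115995255, minus), Robo4 (chr9:37401722-37402021, plus) and Unc5b (chr10:60831532-60831831, minus).
Efnb2: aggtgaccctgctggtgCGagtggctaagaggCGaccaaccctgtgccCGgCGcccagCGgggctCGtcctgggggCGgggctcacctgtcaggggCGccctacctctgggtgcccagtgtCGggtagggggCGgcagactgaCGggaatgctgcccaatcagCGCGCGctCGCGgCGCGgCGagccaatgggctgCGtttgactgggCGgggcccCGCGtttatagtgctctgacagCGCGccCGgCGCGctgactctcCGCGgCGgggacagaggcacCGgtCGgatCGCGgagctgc
Ephb4: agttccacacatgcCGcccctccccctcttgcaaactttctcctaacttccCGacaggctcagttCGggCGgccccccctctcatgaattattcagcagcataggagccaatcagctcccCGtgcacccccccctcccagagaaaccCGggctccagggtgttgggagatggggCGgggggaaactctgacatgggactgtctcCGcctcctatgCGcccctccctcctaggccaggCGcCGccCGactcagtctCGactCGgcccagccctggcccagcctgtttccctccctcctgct
Plxnd1: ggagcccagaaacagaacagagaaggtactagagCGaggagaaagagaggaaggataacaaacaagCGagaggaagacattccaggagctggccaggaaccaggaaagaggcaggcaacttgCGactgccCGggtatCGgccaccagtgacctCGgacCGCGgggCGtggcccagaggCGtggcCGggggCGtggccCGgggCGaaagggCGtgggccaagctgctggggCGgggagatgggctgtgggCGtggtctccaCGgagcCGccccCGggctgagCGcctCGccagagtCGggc
Robo4: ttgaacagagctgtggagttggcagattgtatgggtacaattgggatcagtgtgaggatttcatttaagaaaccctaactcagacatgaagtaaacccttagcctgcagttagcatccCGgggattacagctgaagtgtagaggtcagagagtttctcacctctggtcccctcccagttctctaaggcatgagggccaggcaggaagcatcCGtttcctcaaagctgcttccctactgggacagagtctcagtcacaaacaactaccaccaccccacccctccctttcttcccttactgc
Unc5b: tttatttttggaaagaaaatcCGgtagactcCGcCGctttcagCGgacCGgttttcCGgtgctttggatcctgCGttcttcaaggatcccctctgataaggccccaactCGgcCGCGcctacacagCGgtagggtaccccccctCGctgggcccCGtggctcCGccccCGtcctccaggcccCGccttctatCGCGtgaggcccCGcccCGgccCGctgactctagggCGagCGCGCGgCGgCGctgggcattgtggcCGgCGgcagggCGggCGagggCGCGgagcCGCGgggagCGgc
Robo4 has 2 CG dinucleotides in these bases and Ephb4 14, against 35 at Efnb2 and 36 at Unc5b. The KO-only starts ranged from 11 at Efna4 and Sema3e to 30 at Epha5 among the sequences shown.

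Across the 63 genes, H3K27me3 and H3K4me3 covered more DNA in KO, H3K27ac covered less, and H3K4me1 covered slightly more. H3K27me3 covered 69.3 kb in WT and 156 kb in KO, a KO over WT ratio of 2.26, against 1.79 over all protein-coding genes. For H3K4me3 the totals were 51 kb in WT and 86 kb in KO, a ratio of 1.69 against 1.41. For H3K27ac they were 188 kb and 127 kb, a ratio of 0.678 against 0.775. H3K4me1 covered 142 kb in WT and 176 kb in KO, a ratio of 1.24 against 1.19. The guidance genes therefore differed in the same direction as all protein-coding genes for each mark.

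Peaks with at least 1 bp in common with the same mark's list of the opposite genotype were called shared, and the rest WT-only or KO-only. H3K4me3 had 86 peaks in WT and 153 in KO, with 12 WT-only and 87 KO-only, and H3K27me3 had 133 and 215, with 25 and 113. H3K27ac had 598 peaks in WT and 305 in KO, with 412 WT-only and 124 KO-only, and H3K4me1 had 338 and 354, with 80 and 103. The KO-only share of genotype-only peaks was 87.9% for H3K4me3 (interval 79.8 to 93.6), 81.9% for H3K27me3 (74.4 to 87.9), 56.3% for H3K4me1 (48.8 to 63.6) and 23.1% for H3K27ac (19.6 to 26.9). The shares over all genes, 80.8%, 75.8%, 50.8% and 23.1%, lay inside these intervals. With equal numbers of the widest peaks in both lists, the H3K27ac share was 48.1% (interval 42.2 to 54). The shared part of 4 of the 8 lists was smaller over guidance genes than over all genes, with intervals below the background. Of WT H3K27ac peaks 31.1% were shared (27.4 to 35), against 43.6% over all genes, and of KO H3K4me3 peaks 43.1% (35.2 to 51.4), against 59%. Of KO H3K27me3 peaks 47.4% were shared (40.6 to 54.3), against 56.2%, and of KO H3K27ac peaks 59.3% (53.6 to 64.9), against 72.1%. WT H3K27me3 and WT H3K4me3 peaks were near the background, with 81.2% shared against 80.8% and 86% against 86.4%. For H3K4me1 the shares were 76.3% in WT, against 76.3%, and 70.9% in KO, against 75.2%, both with intervals that held the background. Guidance genes are long, with a median of 46.3 kb against 17.49 kb, and the part of length in these shares was not tested.

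A gene was counted for a mark if its covered length differed at least 2-fold between lists and the longer was at least 500 bp. For H3K27me3, 27 of 63 genes had more in KO (42.9%, against 15.2% of all genes) and 2 had more in WT (3.17%, against 1.58%). For H3K4me3, 15 genes had more in KO (23.8%, against 10.8%) and 0 had more in WT (0.484% of all genes). For H3K27ac, 16 genes had more in WT (25.4%, against 7.83%) and 0 had more in KO (0.886%). H3K4me1 gave 3 genes with more in KO (4.76%, against 3.91%) and 3 with more in WT (4.76%, against 4.36%), close to the background. Among genes of at least 20 kb the same shares were 37.8% against 18.2% for H3K27me3, 22.2% against 13.7% for H3K4me3 and 28.9% against 11.6% for H3K27ac. The KO lists of H3K4me3 and H3K27me3 and the WT list of H3K27ac are the longer ones. After each pair of lists had been cut to the same number of widest peaks, 25 genes were past the limit for H3K27me3 (39.7%, against 13.4%), 11 for H3K4me3 (17.5%, against 8.88%) and 9 for H3K27ac (14.3%, against 4.68%). Just inside the H3K27me3 limit lay Ntn3, with a KO over WT ratio of 2.01, and just outside it Sema4f, with 1.84.

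**Figure D1:**
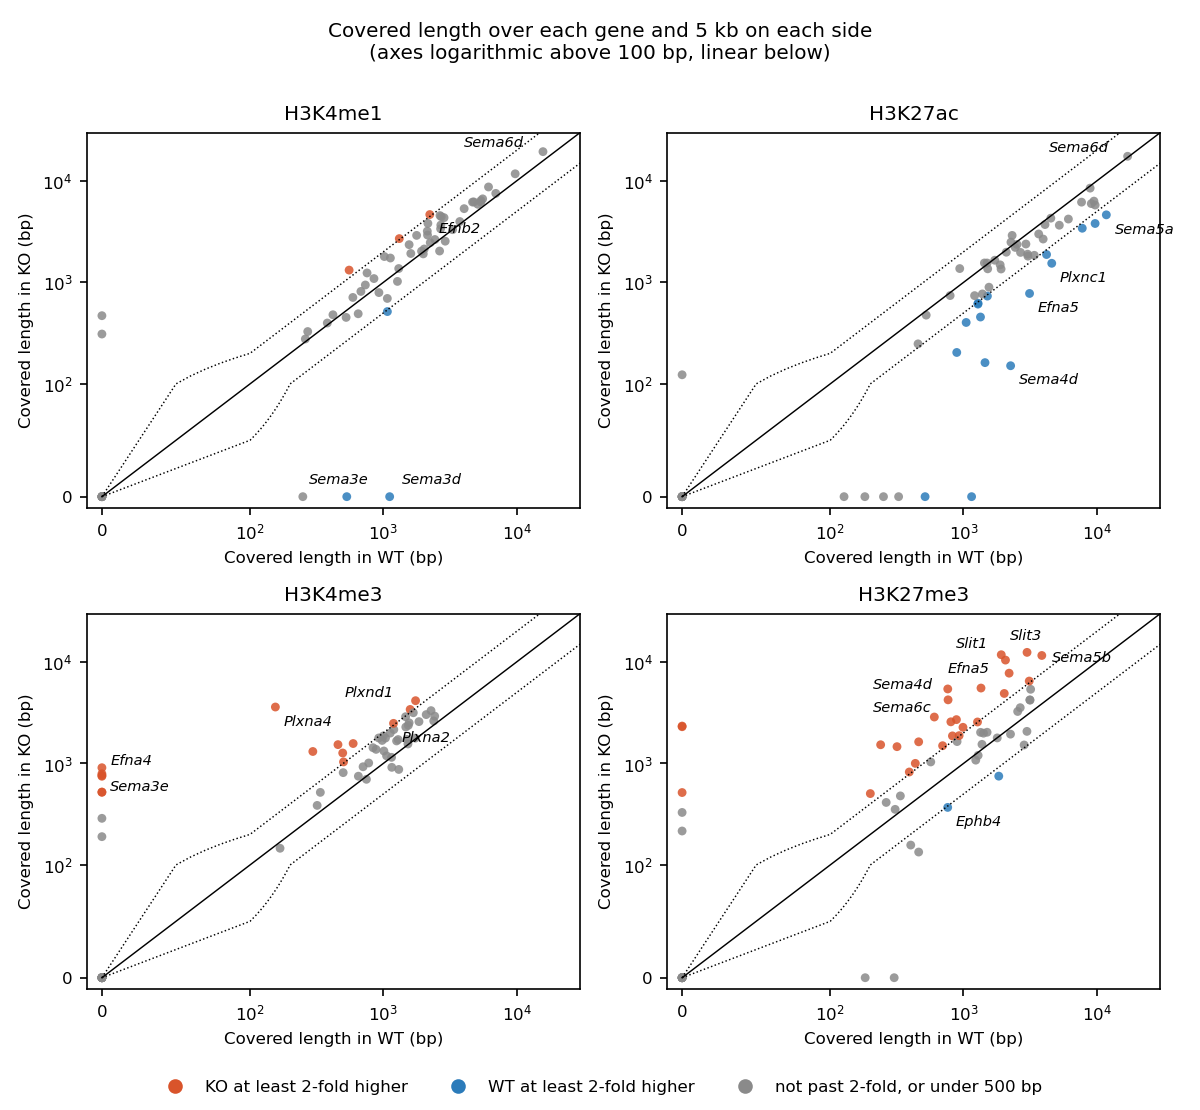
Length covered by peaks of each mark over each of the 63 guidance genes and 5 kb on each side, in bp, WT on the horizontal axis and KO on the vertical axis. Each point is a gene, the solid line marks equal length, the dotted lines mark 2-fold, and both axes are logarithmic above 100 bp and linear below. In the H3K27me3 panel 27 genes are orange, at least 2-fold higher in KO with 500 bp or more, and in the H3K27ac panel 16 are blue, at least 2-fold higher in WT.

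Among the secreted class 3 semaphorins, Sema3c, Sema3f and Sema3g had H3K4me3, H3K27ac and H3K4me1 at a gene end in both genotypes and no H3K27me3 there. Sema3c, which guides cells of the developing heart outflow tract, had the third widest shared H3K27ac peak, 1497 bp in WT and 1767 bp in KO. Sema3f, a ligand of neuropilin 2, had H3K4me3 over 1469 bp in WT and 2887 bp in KO. All 4 of its KO-only H3K4me3 peaks overlapped WT peaks of both H3K4me1 and H3K27ac. Sema3g, which endothelial cells themselves produce, had 1510 bp of H3K4me3 in WT and 1727 bp in KO.

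Sema3e, the ligand of Plxnd1, differed from those 3. It had no H3K4me3 peak in WT and 1 of 748 bp in KO (chr5:14025189-14025936), which begins inside the promoter sequence printed above. At that start WT had a 532 bp H3K4me1 peak (chr5:14025191-14025722) that was not listed in KO, while H3K27me3 was listed in both. Its H3K27ac covered 1341 bp in WT and 456 bp in KO. Sema3d was alike for H3K4me1, with a WT-only peak of 825 bp at its start, the widest WT-only H3K4me1 peak over the 63 genes, and for H3K27ac, with 1450 bp in WT and 162 bp in KO. At Sema3d, however, H3K4me3 and H3K27me3 were listed in both genotypes. The Sema3b window had H3K27me3 over 239 bp in WT and 1529 bp in KO and H3K4me3 over 457 bp and 1533 bp, with neither mark at an end. The widest shared H3K27ac peak of the set by WT width, 1710 bp in WT and 1302 bp in KO, lay in the flank of Sema3b. The window of Gnai2 also holds that stretch. The only H3K27me3 peak of each list and the only WT H3K4me3 peak in the Sema3b window overlapped this flank peak. Sema3a, a repellent of axons and vessels, had H3K4me3 over 882 bp in WT and 1377 bp in KO, and inside the gene a WT-only H3K4me1 peak of 737 bp.

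The membrane semaphorins held the widest KO-only H3K27me3 peak of the set. Sema4d, a ligand of Plxnb1 that is known from lymphocytes and platelets, had a 3362 bp KO-only H3K27me3 peak at its outer 5′ end (chr13:51790855-51794216), where no other mark was listed. Over the gene its H3K27me3 covered 762 bp in WT and 5422 bp in KO, and its H3K27ac 2257 bp in 8 WT peaks and 151 bp in 1 KO peak. H3K4me3 was listed at 0 in WT and over 523 bp in KO. Sema6c and Sema6b, transmembrane semaphorins, had H3K27me3 over 766 bp and 1353 bp in WT and over 4235 bp and 5534 bp in KO. In Sema6c most of this lay in 1 peak at the 3′ end, 559 bp wide in WT and 3375 bp in KO.

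Sema5b, which carries thrombospondin repeats, had H3K27me3 in 10 peaks over 3868 bp in WT and 19 peaks over 11588 bp in KO, spread along the gene. H3K4me3 was listed at 0 in WT and over 520 bp in KO, with a 301 bp peak just upstream of the printed promoter (chr16:35540391-35540691), and H3K27ac covered 1511 bp in WT and 733 bp in KO. Its relative Sema5a showed another pattern, in which H3K27me3 covered 1413 bp and 1988 bp while H3K27ac covered 11791 bp in 40 WT peaks and 4632 bp in 14 KO peaks. Sema6a, a ligand of class A plexins, had KO-only H3K4me3 (154 bp) and KO-only H3K27me3 (171 bp) at its end, where WT had an H3K4me1 peak of 261 bp. These peaks are narrow. Sema6b also had both marks at an end in KO only, with widths of 202 bp for H3K4me3 and 1119 bp for H3K27me3. Another annotated Sema6b start, inside the gene, had all 4 marks in both genotypes. Sema4c, a ligand of Plxnb2, had 1 of the widest shared H3K4me3 peaks, 1809 bp in WT and 2045 bp in KO, and H3K27ac over 2678 bp in WT and 1975 bp in KO. Sema7a, a lipid-anchored semaphorin, and Sema6d had H3K4me3, H3K27ac and H3K4me1 at an end in both genotypes without H3K27me3. Sema6d had the most H3K27ac of any guidance gene in WT, 54 peaks over 17033 bp, and 34 wider peaks over 17491 bp in KO.

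The Slits, secreted ligands of the Robo receptors, had the largest H3K27me3 totals per gene of any family, 7466 bp in WT and 27473 bp in KO over 3 genes. Slit3, Slit2 and Slit1 are long (587.1, 326.4 and 149.5 kb), and these totals were not scaled to length. Slit3, which endothelial cells and pericytes can secrete, had 7 H3K27me3 peaks over 2997 bp in WT and 28 peaks over 12434 bp in KO. Of the KO peaks 24 were KO-only, and the KO peaks were strewn along the gene from 0.3 kb before its start to 565.9 kb after it. Its H3K4me3 at the start was listed in both genotypes, over 500 bp in WT and 812 bp in KO. H3K27ac over Slit3 was listed in 34 peaks (9517 bp) in WT and 18 peaks (6324 bp) in KO. Slit1, known chiefly from the nervous system, had no H3K4me3 in either list and H3K27me3 over 1920 bp in WT and 11786 bp in KO. Slit2 differed less, with a single H3K27me3 peak of 2549 bp in WT and 3253 bp in KO at its annotated start, where H3K4me3, H3K27ac and H3K4me1 were listed in both.

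**Figure D2:**
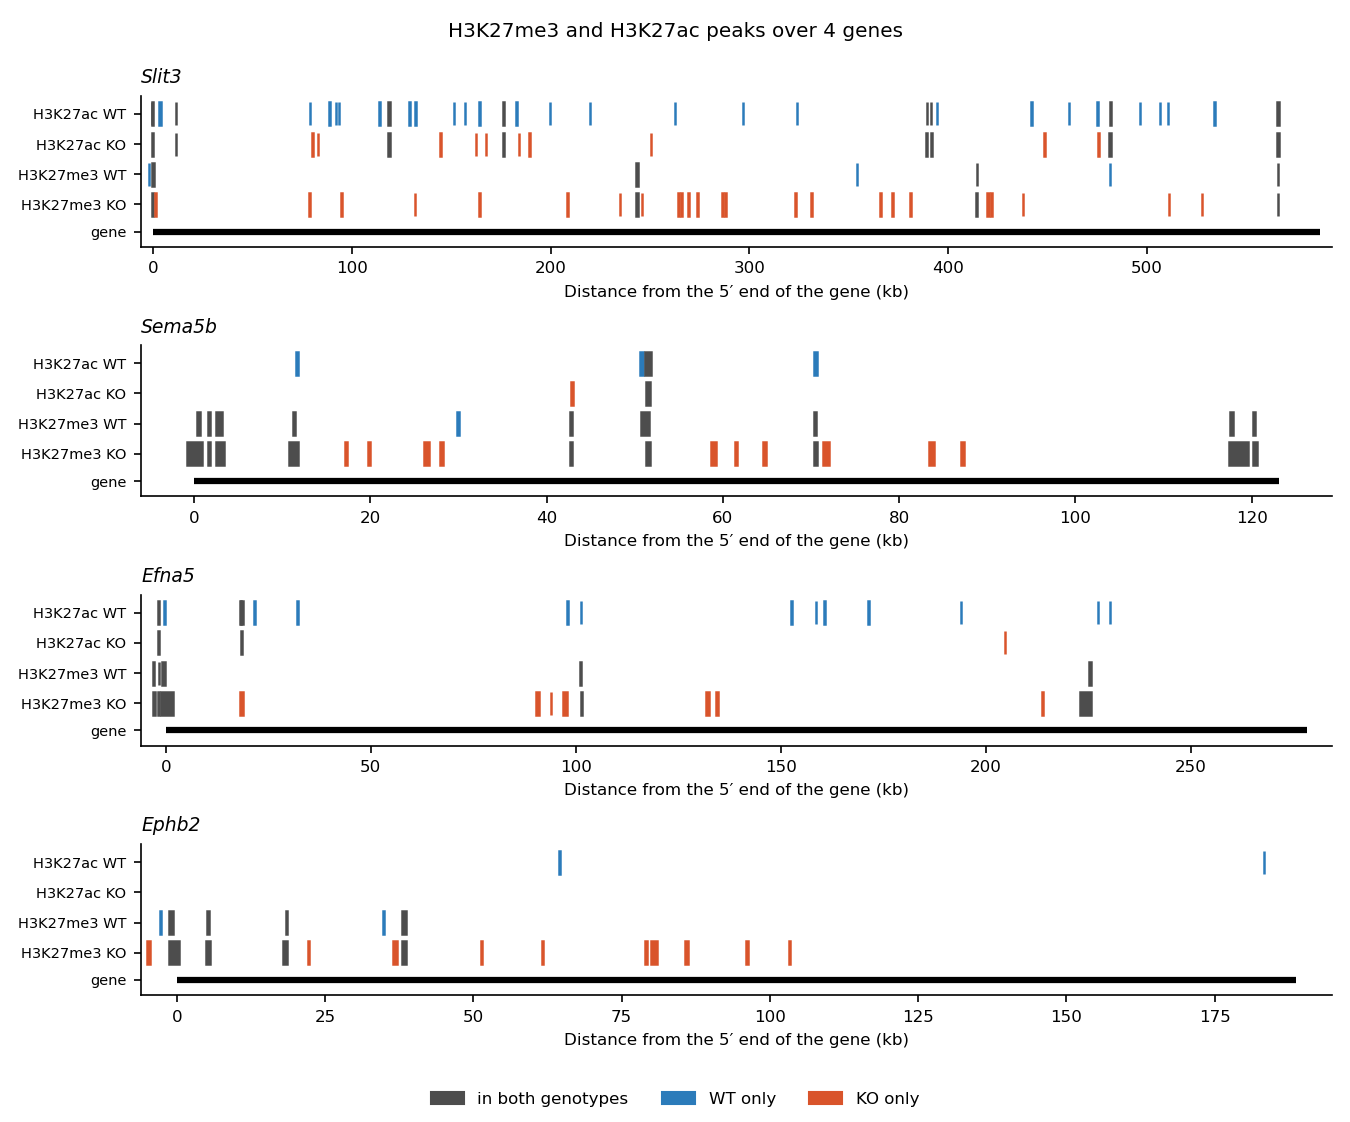
H3K27ac and H3K27me3 peaks of WT and KO over Slit3, Sema5b, Efna5 and Ephb2, by distance from the 5′ end of the gene in kb, with the gene as a black bar. Dark blocks are peaks found in both genotypes, blue blocks are WT-only and orange blocks KO-only, and very narrow peaks are widened to the thickness of a line. KO-only H3K27me3 peaks lie far from the 5′ end as well as near it, 24 of them in Slit3.

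All 4 netrins had at least 2-fold more H3K27me3 in KO over gene and flanks, against 15.2% of all genes. Ntn1, a laminin-related cue that acts through Unc5b in vessels, had no H3K27me3 peak in WT and 4 peaks over 2336 bp in KO. One of them, 524 bp wide, lay at its end together with H3K4me3 of both genotypes (chr11:68386771-68387294). At the same place H3K27ac (477 bp) and H3K4me1 (139 bp) were WT-only, and over the gene H3K27ac covered 4198 bp in WT and 1883 bp in KO. Ntn4, which binds laminin in basement membranes, had H3K27me3 over 804 bp in WT and 2572 bp in KO, H3K4me3 at its start in both, and a 399 bp H3K27ac peak there in KO only. Inside the gene it had a further KO-only H3K27ac peak of 528 bp. Ntn3 and Ntn5 had H3K27me3 over 1274 bp and 317 bp in WT and over 2563 bp and 1464 bp in KO. At Ntn5 the WT peak and 1 of 2 KO peaks centred 15.4 kb and 15.0 kb from the start, beyond the 10.5 kb gene. Sec1 and Car11 lie in the same window.

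Among the ephrins, 5 of 7 had at least 2-fold more H3K27me3 in KO, against 15.2% of all genes. Efna5 had 2065 bp in 5 WT peaks and 10440 bp in 12 KO peaks, and H3K27ac in 15 WT peaks over 3130 bp and 3 KO peaks over 778 bp, among them a WT-only peak of 126 bp at its start. Efna2 had H3K27me3 over 826 bp in WT and 1869 bp in KO and no H3K4me3 in either list, and its H3K27ac was 1 KO-only peak of 123 bp at the start. Efnb3 had no peak of any mark in WT and a 2035 bp H3K27me3 peak at its end in KO (chr11:69558734-69560768), a stretch that the window of Wrap53 also holds. Efna4 had no H3K4me3 in WT and a 791 bp peak across the printed promoter in KO (chr3:89337583-89338373), the widest KO-only H3K4me3 peak of the set, on H3K4me1 of both genotypes. Its H3K27me3, listed at 0 in WT, covered 517 bp in KO, away from the start, and the neighbour Adam15 lies in the same window. Efna3 had a KO-only H3K4me3 peak of 190 bp at its start on H3K27me3 of both genotypes. Efnb2, the arterial ephrin, stood apart from these. It had all 4 marks at its start in both genotypes, including the widest shared H3K4me3 peak by WT width, 1860 bp in WT against 2 KO peaks of 241 bp and 1379 bp, and H3K27me3 over 461 bp and 134 bp. Its H3K4me1 covered 2232 bp in WT and 4663 bp in KO. Efna1, a ligand of Epha2, had H3K4me3 at its start in both genotypes, over 1199 bp and 2158 bp in its window.

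Of the 7 plexins, 4 had at least 2-fold more H3K4me3 in KO, 2 had more H3K27me3 in KO and 1 had more H3K27ac in WT. The shares of all genes with these calls were 10.8%, 15.2% and 7.83%. Over the family H3K4me3 covered 8435 bp in WT and 17386 bp in KO, H3K27me3 1785 bp and 3581 bp, and H3K27ac 30760 bp and 20453 bp. Plxnd1, the endothelial receptor of Sema3e, had H3K4me3 in 5 peaks over 1746 bp in WT and 8 peaks over 4155 bp in KO. Of the 5 KO-only peaks, 4 lay on H3K4me1 of WT and 3 on H3K27ac of WT. A KO-only H3K27me3 peak of 329 bp lay on its printed promoter (chr6:115994982-115995310), where the other 3 marks were listed in both genotypes. Plxna4, a receptor of class 3 and class 6 semaphorins, had 155 bp of H3K4me3 in WT and 3599 bp in KO, of which 2479 bp were 1 peak at its end. A 507 bp H3K27ac peak at its end was WT-only. Plxna1 had H3K4me3 over 1590 bp in WT and 3406 bp in KO. Plxna2 had H3K4me3 over 1193 bp in 1 WT peak and 2484 bp in 7 KO peaks. Plxnc1, the receptor of Sema7a, had 2 WT-only H3K27ac peaks at its start, of 315 bp and 573 bp, and H3K4me3 there in both genotypes. Over the gene its H3K27ac covered 4592 bp in WT and 1543 bp in KO.

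Robo4 and Robo3 are neighbours on chromosome 9. Robo4, the endothelial Robo, had H3K4me3, H3K27ac and H3K4me1 at its start in both genotypes. Upstream of the printed promoter WT had a 302 bp H3K27me3 peak (chr9:37400612-37400913) and KO had a 325 bp H3K4me3 peak instead (chr9:37400584-37400908), on H3K4me1 and H3K27ac of both genotypes. Robo3, a receptor known from axons that cross the midline, had H3K4me3 listed at 0 in WT and over 908 bp in KO, on a gene with H3K27me3 over 2664 bp in WT and 3545 bp in KO. Robo1, a receptor of Slit2, had all 4 marks at its annotated start in both genotypes, and H3K27ac in 38 WT peaks over 9714 bp and 13 KO peaks over 3807 bp. Robo2 had 44 H3K27ac peaks over 9716 bp in WT and 21 over 5786 bp in KO, and H3K27me3 over 2022 bp and 4895 bp. The H3K27ac that was WT-only at its ends was 2 narrow peaks at the finish, of 183 bp and 101 bp. Its H3K4me3 peaks were 4 in WT and 5 in KO with none shared, among them the widest WT-only H3K4me3 peak of the set, 391 bp.

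Unc5b, the netrin receptor of endothelial tip cells, had H3K4me3 at its start in both genotypes, as 1 WT peak of 1541 bp and KO peaks of 403 bp and 494 bp. Inside the gene KO had 4 further H3K4me3 peaks, and all 4 overlapped WT peaks of both H3K4me1 and H3K27ac. The widest, 698 bp (chr10:60792534-60793231), lay within a shared H3K27ac peak that was 1510 bp wide in WT and 1111 bp in KO. H3K27ac over Unc5b covered 5235 bp in WT and 3660 bp in KO. Unc5c had all 4 marks at an end in both, with H3K27me3 over 3146 bp and 4236 bp. Unc5a and Unc5d, known from neurons, had H3K27me3 over 435 bp and 927 bp in WT and over 1002 bp and 1879 bp in KO.

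Eph receptors differed in both directions in H3K27me3. Ephb2, which also signals in vessels, had no H3K4me3 in either list and H3K27me3 in 6 peaks over 2199 bp in WT and 14 peaks over 7756 bp in KO. Epha8 had 604 bp in WT and 2868 bp in KO, with an 828 bp KO-only peak at its start. Ephb4, the venous receptor of Efnb2, had 761 bp in WT and 369 bp in KO. Its 300 bp WT-only H3K27me3 peak (chr5:137349845-137350144) covered most of the printed promoter, where H3K4me3, H3K27ac and H3K4me1 were listed in both. Epha6 had H3K27me3 over 1839 bp in WT and 750 bp in KO. Ephb1 had 7 H3K27me3 peaks over 3113 bp in WT and 8 over 6485 bp in KO. They included the widest WT-only H3K27me3 peak of the set, 925 bp (chr9:102067610-102068534), and a KO-only peak of 1769 bp (chr9:102159606-102161374), both inside the gene and on no other mark. Its H3K27ac was listed in 34 peaks over 7780 bp in WT and 9 over 3418 bp in KO, and its H3K4me3 over 296 bp and 1312 bp. Epha1 had no H3K4me3 in either list and H3K27ac over 890 bp in WT and 204 bp in KO, with a WT-only peak of 299 bp at its start (chr6:42373188-42373486). For H3K27me3, Epha5 had 1 WT peak of 2850 bp against KO peaks of 475 bp, 158 bp and 888 bp, short of the 2-fold limit.

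Epha3, Epha5 and Ephb3 had H3K4me3 at their starts in KO only and H3K27me3 there in both. The KO peaks were 605 bp wide at Epha3, 288 bp at Epha5 and 189 bp at Ephb3, and each overlapped the printed promoter. The other marks at these 3 starts differed. At Epha3 H3K4me1 was WT-only and H3K27ac KO-only, at Epha5 H3K27ac was WT-only, and at Ephb3 H3K4me1 and H3K27ac were listed in both. Epha2, the receptor of Efna1, had H3K4me3 and H3K27ac at its start in both genotypes and no H3K27me3, with H3K4me3 over 1475 bp in WT and 2285 bp in KO.

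Gene ends were examined next, with a reach of 1000 bp around the start and the finish of each annotated gene. Here 27 genes had H3K4me3 in both genotypes, 12 in KO only (19%, against 6.9% of all genes) and 0 in WT only (0.682%). Of the 12 genes 10 had a KO-only peak there, and at Ephb6 and Plxnb2 the difference lay in the reach of a shared peak. Ephb6, Plxnb2 and Sema6b each had H3K4me3 at an annotated start in both genotypes. At annotated starts alone, H3K4me3 was KO-only at 9 genes, the 8 printed above and Sema4d, and WT-only at 0. That is 16.7% of the 54 genes with an entry, against 6.59% of 16457 genes, and for WT-only 0%, against 0.565%. With equal numbers of the widest peaks, 8 genes had H3K4me3 at an end in KO only (12.7%, against 4.53%). H3K27me3 was listed in both at 32 genes, in KO only at 7 (11.1%, against 8.28%) and in WT only at 3 (4.76%, against 3.43%), the last being Ephb4, Robo1 and Robo4. Among genes with H3K27me3 at an end in either genotype, KO-only made up 16.7%, against 17.9%, and WT-only 7.14%, against 7.42%, close to the background. H3K27ac was listed in both at 24 genes, in WT only at 9 (14.3%, against 5.88%) and in KO only at 4 (6.35%, against 2.01%). Some of these calls rest on how far a shared peak reached and on no genotype-only peak, namely Robo1 for H3K27me3, Efna1 and Sema4c for WT-only H3K27ac and Ntn5 for KO-only H3K27ac. The Sema4c peak lay near its 3′ end, where Ankrd39 also lies. H3K4me1 was listed in both at 28 genes, in WT only at 8 (12.7%, against 9.52%) and in KO only at 2 (3.17%, against 2.35%).

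**Figure D3:**
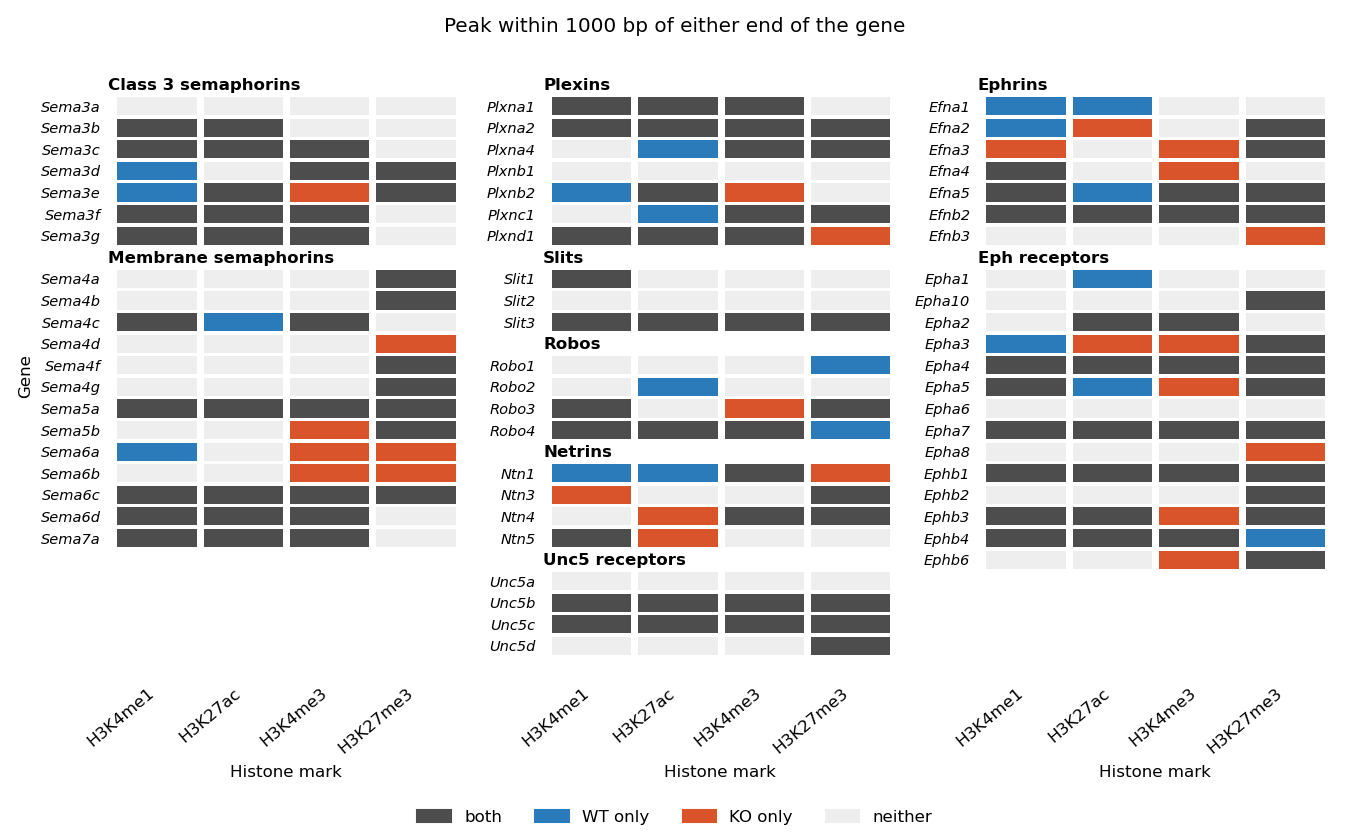
Presence of each mark (columns) within 1000 bp of either end of each guidance gene (rows, grouped by family). Dark cells mark a peak in both genotypes, blue cells in WT only, orange cells in KO only and pale cells in neither. The H3K4me3 column has 12 orange cells and 0 blue ones.

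Combining H3K4me3 and H3K27me3 at gene ends, the number of genes with both marks was 17 in WT and 27 in KO, which is 27% and 42.9% of the 63, against 25.6% and 31.2% of all genes. Genes with H3K27me3 alone made up 28.6% in WT, against 12.2% of all genes, and 19% in KO, against 11.5%. The largest group of genes whose state differed had H3K27me3 alone in WT and both marks in KO. It held 8 genes, Efna3, Epha3, Epha5, Ephb3, Ephb6, Robo3, Sema3e and Sema5b, and 0 genes showed the reverse. The share was 12.7% of the 63 genes, against 2.99% of all genes, and for the reverse 0%, against 0.252%. Among genes with H3K27me3 alone in WT, 8 of 18 guidance genes had both marks in KO (44.4%), against 24.4% of 2530 genes. With 18 genes this share is uncertain, and no interval was computed for it. Of the 8 genes, Ephb6 rests on the reach of a shared peak. The KO H3K4me3 peak at the end of Robo3 (chr9:37434375-37434795) lay outside the gene and not within 1000 bp of its annotated start. Ntn1 and Plxnd1 had H3K4me3 alone in WT and both marks in KO, while Ephb4 and Robo4 had both marks in WT and H3K4me3 alone in KO. The same state in both genotypes was listed at 15 genes with both marks, 8 with H3K4me3 alone, 9 with H3K27me3 alone and 11 with neither. These states use the outer ends of the gene alone and miss annotated starts inside it. Among the 11, Slit2 and Unc5a had both marks at an annotated start in both genotypes, and Efna1 and Plxnb1 had H3K4me3 there. Robo2 and Epha6, also among the 11, had H3K27me3 at an annotated start in both genotypes, and Robo2 had KO-only H3K4me3 at that start. Sema4b, counted with H3K27me3 alone, had both marks at an annotated start in both genotypes. So did Sema4c, counted with H3K4me3 alone. Robo1, Ephb6 and Sema6b, whose end states differed, also had both marks at an annotated start in both genotypes.

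The 87 KO-only H3K4me3 peaks lay mostly inside genes, 63 of them, with 18 at gene ends and 6 in the flanks. They were narrow, with a median of 202 bp against 893.5 bp for shared KO peaks. Of the 87, 50 overlapped WT H3K4me1 (57.5%, interval 46.4 to 68, against 50.6% over all genes) and 46 overlapped WT H3K27ac (52.9%, against 49.1%). Both shares lay near those of all genes. At Unc5b, Sema3f, Plxna4 and Sema6d every KO-only H3K4me3 peak lay on both marks of WT. Plxna2 had the most KO-only peaks, 6, of which 2 lay on WT H3K4me1.

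**Figure D4:**
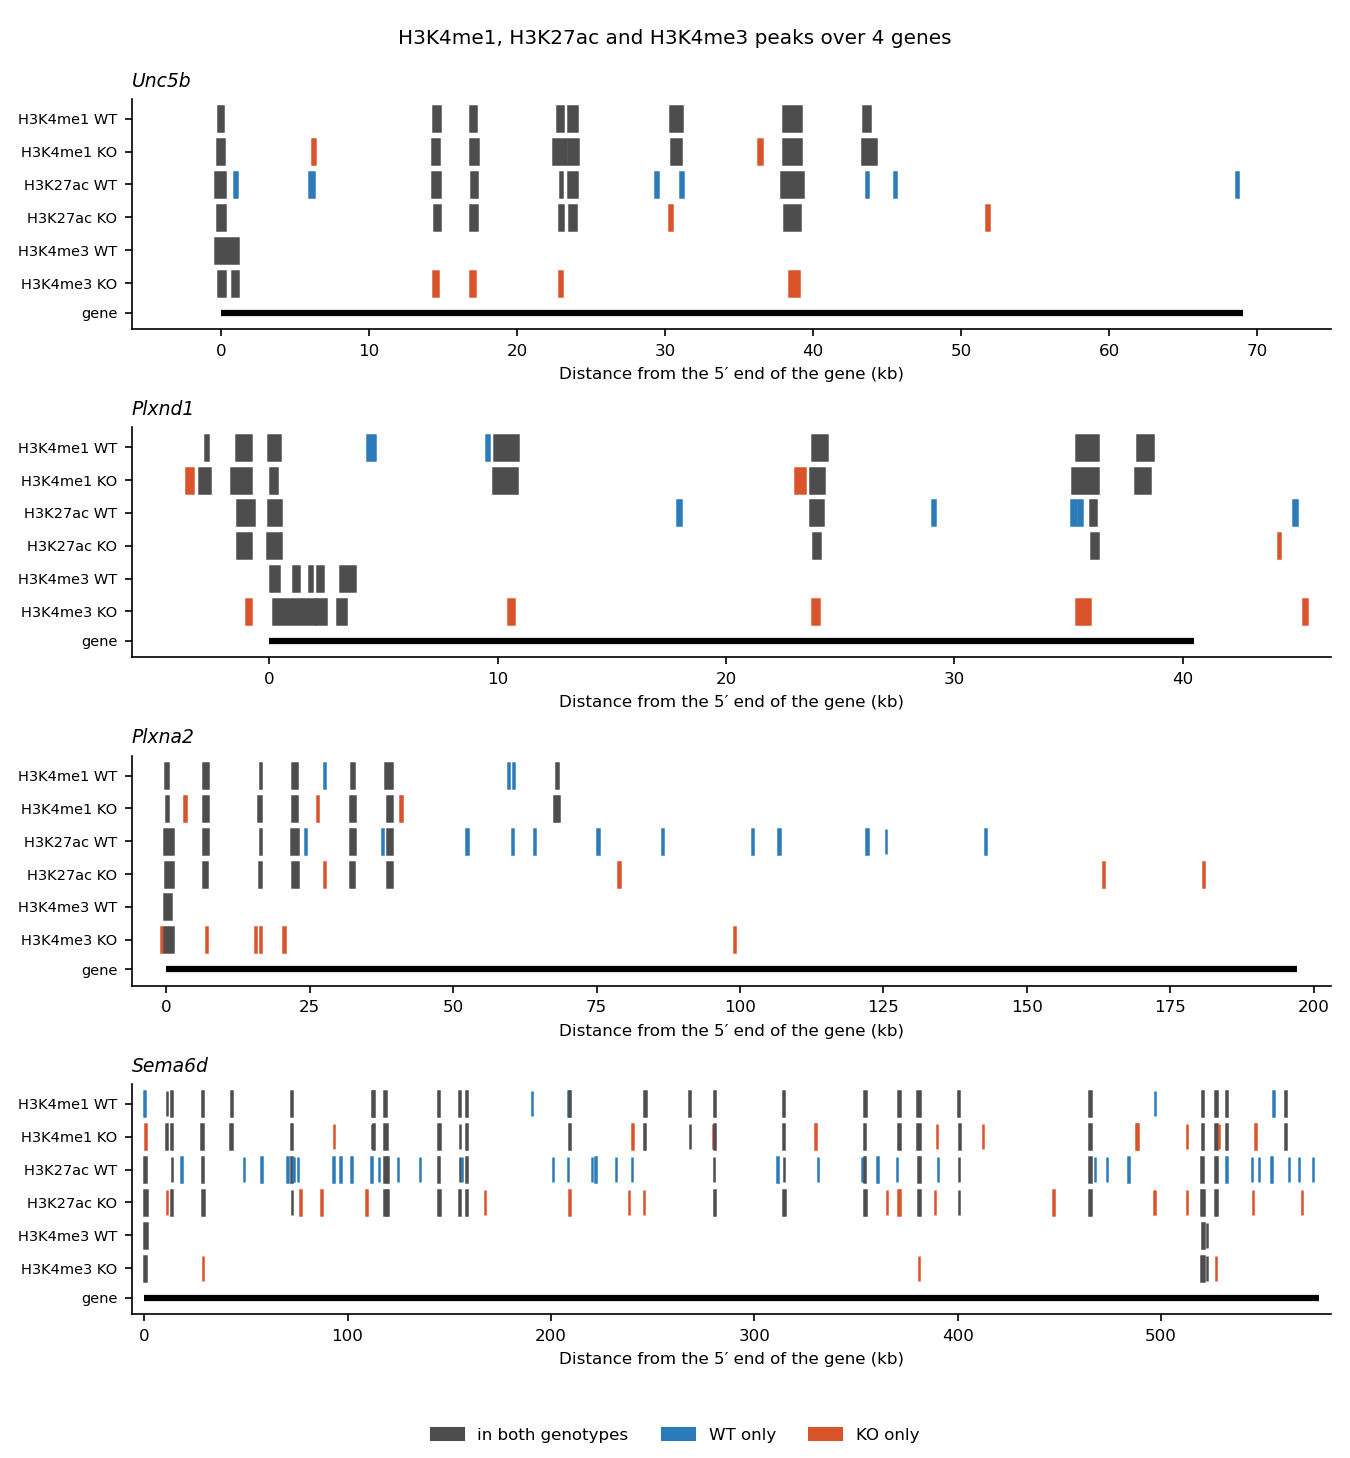
H3K4me1, H3K27ac and H3K4me3 peaks of WT and KO over Unc5b, Plxnd1, Plxna2 and Sema6d, by distance from the 5′ end of the gene in kb, with the gene as a black bar. Dark blocks are peaks in both genotypes, blue blocks WT-only and orange blocks KO-only, and very narrow peaks are widened to the thickness of a line. The 4 KO-only H3K4me3 peaks of Unc5b stand under H3K4me1 and H3K27ac peaks of both genotypes.

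KO-only H3K27me3 peaks lay elsewhere. Of 113, 90 overlapped no other mark in either list (79.6%, interval 71 to 86.6, against 75% over all genes), and 94 lay inside genes. Only 6 met KO H3K27ac (5.31%, interval 1.97 to 11.2, against 16.9%). WT-only H3K27ac peaks were the narrowest large group, 412 peaks with a median of 170 bp against 523.5 bp for shared WT peaks. Of these 384 lay inside genes and 53 overlapped H3K4me1 of WT (12.9%, against 12.8% over all genes).

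The annotated starts were also grouped by H3K4me3. The 34 guidance promoters with H3K4me3 in both genotypes had a median of 24.5 CG dinucleotides in 300 bases, the 11 with H3K4me3 in KO only had 18, and the 25 with none had 14. Over all genes the medians were 23, 17 and 4 in the same order, so that guidance promoters without H3K4me3 had more CG than other such promoters. The ranges overlapped widely, from 2 to 42, 3 to 30 and 2 to 56. Of the 11 KO-only promoters, 8 had H3K27me3 in both genotypes (72.7%, interval 39 to 94, against 40.6% of the 1322 KO-only promoters of all genes) and 8 had H3K4me1 in WT (72.7%, against 56.1%). With 11 promoters the interval is wide, and it holds the background of both shares. The GC box GGGCGG, searched on both strands, was found in 50 of the 70 guidance promoters (71.4%) and in 47% of 20085 promoters of all genes. The ETS core CGGAAG was found in 6 (8.57%) and in 21.5%.

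**Figure D5:**
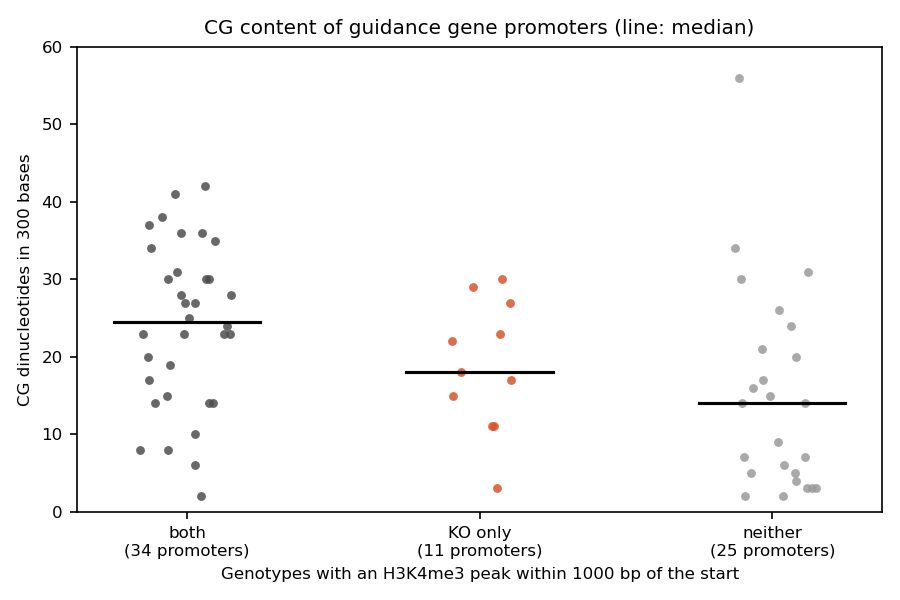
Number of CG dinucleotides in the 300 bases around each of 70 annotated starts of guidance genes (vertical axis), by the genotypes in which an H3K4me3 peak lay within 1000 bp (horizontal axis). Points are promoters, spread sideways for legibility, and lines are medians, 24.5, 18 and 14 from left to right.

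Genes that act with these ligands and receptors, such as neuropilins and Dcc, were examined as a list of 50. H3K4me3 was listed at an end in both genotypes at 30 of them, in KO only at 6 (Dpysl5, Mical3, Pak1, Rgmb, Rnd1 and Srgap3) and in WT only at 1 (Ntng2). H3K27me3 was listed in both at 28, in WT only at 4 (Arhgef12, Dcc, Dpysl3 and Rgmb) and in KO only at 2 (Kalrn and Vav2). H3K27ac was listed in both at 27, in WT only at 3 (Pak1, Srgap3 and Vav2) and in KO only at 0. Over all genes, the KO-only and WT-only shares at an end were 6.9% and 0.682% for H3K4me3. They were 8.28% and 3.43% for H3K27me3 and 2.01% and 5.88% for H3K27ac. By covered length, 11 of the 50 had at least 2-fold more H3K27me3 in KO, 12 had more H3K4me3 in KO and 6 had more H3K27ac in WT. The same counts among the 63 ligands and receptors were 27, 15 and 16, which is 42.9%, 23.8% and 25.4%. Over all genes the shares were 15.2%, 10.8% and 7.83%.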

How the data were processed

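ACT-seq peak lists for 4 marks in WT and KO lung endothelial cells were analysed, 1 list for each group of 3 samples. What entered was the position and width of each peak in bp (unit other), as the authors deposited them, with no scaling. The submitters' processing notes name MACS2 2.1.2.1, deepTools 3.1.1, SAMtools, Bowtie2 2.2.6, cutadapt 1.14 and Trim Galore 0.4.4, and the builds mm10 and R64. How peaks were thresholded, whether the spike-in scaled them and whether samples were pooled is not given in the sources used here. A longer list can come from more signal, more depth or a looser threshold, and these cannot be told apart. H3K9me3, named in the protocol, was not analysed here.

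Overlaps were computed with scipy 1.17.1, pandas 2.3.3 and numpy 2.4.6 in Python 3.11.15, and figures with matplotlib 3.10.9. Gene positions came from RefSeq on GRCm38.p6. Peaks were shared at 1 bp of overlap, and the background was the same measure over all 20665 protein-coding genes. The overlap code was tested on simulated data, with 0 of 2000 peaks and 0 of 500 windows wrong. The genes and lists were chosen with earlier results of these data known. Any guidance gene could be named. The rule gave values to genes with a promoter mark or H3K27ac at an end in 1 genotype only. Of these, Ephb6 and Plxnb2 were only named. The rule also covered the 3 genes with the widest genotype-only or shared peaks of a mark, and endothelial members listed by name. Further genes with large differences in covered length, such as Sema6c and Slit1, were given values after these had been seen. Related genes were named up to 6 a state, in alphabetical order. Efnb1 was not analysed here, since it lies on the X chromosome. Covered length, CG counts and motifs were added to the planned measures.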

Additional observations from a re-analysis of the deposited data

How the results depend on the processing

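No paired analysis was possible because the lists hold no values per sample, and leaving out replicates was not run for the same reason. No share crossed 50% under the alternatives run, although 3 reached it. With peaks under 200 bp left out, the KO-only share of genotype-only peaks was 65.2% for H3K4me1 and 31.6% for H3K27ac. With equal numbers of the widest peaks it was 64.7% for H3K4me3 (interval 50.1 to 77.6) and 65.5% for H3K27me3 (56.3 to 74). For H3K27ac it was 48.1% in that setting, with an interval of 42.2 to 54 that holds 50%. There 9 genes in place of 16 had at least 2-fold more H3K27ac in WT. With shared peaks required to overlap by 50% of both, the KO-only share was 72.8% for H3K4me3 and 66.4% for H3K27me3. At gene ends within 500 bp, the KO-only share for H3K4me1 was 0%. At gene ends the H3K27me3 share was 50% with equal numbers and at annotated starts alone, against 70% (interval 34.8 to 93.3), and the H3K4me1 share was 50% within 2000 bp, against 20% (2.52 to 55.6). The cause of these shifts was not tested. In all, 47 values of the main results moved by less than their counting interval or by less than 1.5 times. The alternatives for counts by covered length were chosen after seeing the data. With 1 list a genotype, no result has an error between animals, and narrow peaks are the least certain.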

Other observations

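WT H3K27ac peaks over several long guidance genes were more often WT-only than over chromosomes 1 to 19. On those chromosomes 51094 WT peaks were WT-only and 30018 shared. Over guidance genes as a whole 31.1% of WT peaks were shared, against 43.6% over all genes, a background of gene windows alone. Shared WT peaks stood at 0.485 per 100 kb over Robo1 and 0.447 over Robo2, against 1.25 over chromosomes 1 to 19, and WT-only peaks at 3.2 and 2.36 per 100 kb, against 2.13. Epha6 was sparse but divided in a like way, with 1 shared and 5 WT-only peaks, or 0.102 and 0.51 per 100 kb. Unc5d had 0 shared and 2 WT-only peaks. Sema6d and Slit3 were dense in both kinds, with 2.89 and 1.51 shared and 6.29 and 4.19 WT-only peaks per 100 kb. These genes were singled out after their values were seen, and no test was made.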
